A study of Mus musculus with 2 samples.

Results

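The Krüppel-like factors are transcription factors that bind GC-rich DNA through zinc fingers at their carboxyl end. The 10 family genes examined were Klf2, Klf3, Klf4, Klf5, Klf6, Klf7, Klf9, Klf10, Klf13 and Klf15, a given list that leaves out 7 other Klf genes. All were found by symbol in a RefSeq table of 21900 mouse protein-coding genes. A peak was given to a gene when its summit, the point of strongest signal, lay in the gene's span from first to last annotated base, introns included. By this rule 26 of 21192 peaks belonged to the family. In all, 9 of the 10 genes held a peak, and Klf6 held none.

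The peaks come from acRIP-seq on gestational day 4 of pregnancy, with the whole uterus of wild-type mice as the tissue. In this assay an antibody against N4-acetylcytidine (ac4C) enriches RNA fragments that carry it before sequencing. There was 1 immunoprecipitation library and 1 input library of RNA that was not pulled down, both from polyA RNA, and 1 peak list for the pair. No value below therefore has a replicate, and how many animals were pooled was not stated in the labels. Among 16 marker genes of uterine cell types, 14 held a peak, against 30.6% of all protein-coding genes. They included genes of epithelium (Krt8, Krt18), stroma (Hoxa10, Hoxa11), smooth muscle (Acta2, Myh11) and endothelium (Pecam1, Cdh5). Epcam of epithelium and Ptprc of immune cells held none. In tissue of mixed cells, fewer cells of a type and less RNA per cell cannot be told apart.

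ac4C is an acetyl group on cytidine, placed on RNA by the enzyme Nat10, and in mRNA it has been linked to stability and translation. Krüppel-like factors fall into branches by the partners of their amino-terminal parts. Klf2, Klf4, Klf5, Klf6 and Klf7 belong to a branch of mostly activators that recruit acetyltransferases, Klf3 to one that represses through the corepressor CtBP, and Klf9, Klf10 and Klf13 to one that represses through SIN3A. Klf15 is usually placed outside these branches. In the uterus Klf9 is known as a partner of the progesterone receptor, Klf5 as a factor the epithelium needs for implantation, and Klf4 and Klf15 as regulators of epithelial growth under oestrogen and progesterone.

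In several members a peak lay over or shortly after a listed start of the gene, and sequence covered there is shown for this reason. RefSeq start windows on GRCm38.p6, of 250 bases before and 50 bases after a start, were listed for 8 members, all but Klf5 and Klf10. A peak covered part of the first 50 transcribed bases in 5 of the 8 (Klf2, Klf3, Klf7, Klf9 and Klf13). Among 17492 protein-coding genes with such a window the share was 3.29%. Among the 5351 of these genes that held a summit it was 10.6%, and among the 7 members that did it was 71.4%. Among peaks of at most 533.8 bp the number of members was 3 of 8, and the share of the 17492 genes was 2.2%. The Klf3 summit also lay in the gene Gm38457, so its peak could not be assigned to Klf3 alone. Counting only summits in 1 gene, the number was 4 of 8, and the share of all genes under that rule is not given here. The lines below give, 5′ to 3′ on the gene's strand, the part of the window under the peak in 4 of these 5 genes, with bases before the start in lower case and up to 30 transcribed bases in capitals.
Klf9, chr19:23141066-23141255, plus strand: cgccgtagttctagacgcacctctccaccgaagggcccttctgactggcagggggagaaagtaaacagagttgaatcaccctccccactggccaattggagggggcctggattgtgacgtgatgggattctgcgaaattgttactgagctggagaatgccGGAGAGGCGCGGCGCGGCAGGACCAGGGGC
Klf13, chr7:63938886-63938931, minus strand: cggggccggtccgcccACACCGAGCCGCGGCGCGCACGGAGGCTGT
Klf7, chr1:64121360-64121410, minus strand: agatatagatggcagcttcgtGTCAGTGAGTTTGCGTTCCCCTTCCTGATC
Klf3, chr5:64803533-64803562, plus strand: GCGCCGGCGTCATGTGACTGCCCAGAGTTG

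In Klf9 the peak began 160 bases before the listed start, in Klf7 21 bases and in Klf13 16 bases before it. In Klf3 it began at transcribed base 13 and in Klf2 at base 41, so that only 10 bases of the Klf2 window were covered, which are not shown. The Klf7 span reaches beyond the listed start, so its bases in lower case lie inside the annotated gene. The Klf9 summit was the closest to a listed start, 29 bases after it. The Klf3 summit lay 122 bases after the start, and those of Klf7, Klf2 and Klf13 lay 273, 466 and 589 bases after it. Klf4 and Klf15 each had a summit within the same distance, 429 and 442 bases after the start, but these narrow peaks did not reach the first 50 bases.

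ac4C in mRNA has been described at runs of C followed by any 2 bases. The motif CNNCNNCNNCNN, searched on the transcribed strand only, with overlapping matches counted once per window, was present in the first 50 transcribed bases of Klf3 and Klf13. In Klf3 it first lay at bases 11 to 22 and in Klf13 at bases 33 to 44. That is 2 of 8 members, against 24.7% of 21263 start windows of protein-coding genes. It was present in 35.3% of the 601 windows in which a peak touched any of these 50 bases, and in 24.4% of the other 20662. The motif was sought in all 50 bases, so it need not lie under the peak. In Klf3 the first match began at base 11, before the peak, which began at base 13. Cytosine made up 14% of these bases in Klf6, the member with no peak, and 26 to 42% in the 5 members with a peak there. Klf4 and Klf15, whose first 50 bases were not covered, lay in the same range, at 32 and 28%. The median of all windows was 28%. It was 30% in the windows touched by a peak and 28% in the others.

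Of the 10 genes, 9 held a peak, and 12 of all 17 listed Klf genes did, against 30.6% of all protein-coding genes. At least 3 peaks were found in 7 of the 10 and 8 of the 17, against 11.9% of all genes. Among peaks with a −log10 q of at least 10 these values were 3 of the 10 members and 4.94% of all genes. They were 1 member and 5.25% among peaks at or above the median fold of the list, and 2 members and 9.51% among peaks of at most 533.8 bp. The counts were 4 in Klf3 and Klf13, 3 in Klf4, Klf5, Klf7, Klf9 and Klf15, 2 in Klf2 and 1 in Klf10. The median gene with a peak held 2. The spans of the members differed far more than their counts, from 2.59 kb in Klf2 to 92.9 kb in Klf7. Peaks covered 67.3% of the Klf2 span and 37.1% of that of Klf4, but 1.37% of that of Klf7. Exons were not told from introns here, and none of these values says how much of an mRNA was covered.

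Fold enrichment is the authors' value, the signal at the summit over the background that the peak caller used. The sources used here do not say whether this background was taken from the input library, from the surrounding signal or from a genome-wide rate, so fold enrichment cannot be read as immunoprecipitation over input. The number of fragments at each summit was recovered from this value and the deposited p-value, and the intervals given are 95% Poisson intervals of it, which cover counting error only. The 26 peaks ran from 3.46-fold to 25.1-fold with a median of 6.55, and 16 of them lay above the median of 5.56 of the 19883 peaks in protein-coding genes. They rested on 7 to 67 fragments (median 31), against a median of 22 for all peaks in protein-coding genes. A peak of at least 10-fold was found in Klf2, Klf4, Klf5 and Klf13, that is in 4 of 10 members, and in 5 of all 17 Klf genes, against 5.84% of all protein-coding genes. Among peaks of at most 533.8 bp these values were 1 member and 3.34%.

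**Figure D1:**
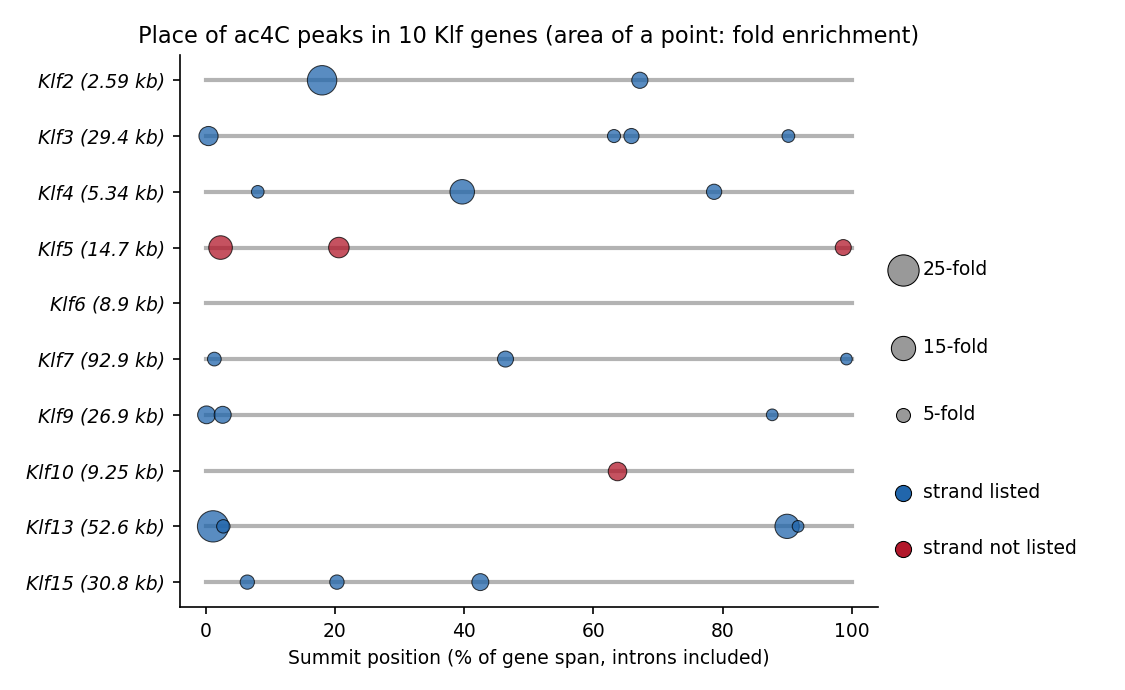
Position of each peak summit as a percentage of the gene span (horizontal axis) in the 10 genes (vertical axis, span in kb), with the area of a point in proportion to fold enrichment. Blue genes run 5′ to 3′ from left to right; Klf5 and Klf10 (red), whose strand was not listed, run from low to high coordinate. Klf13 has a pair of peaks near each end, and Klf6 has none.

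Among the activators, Klf2, a factor of endothelium and resting lymphocytes (NCBI gene 16598; chromosome 8, 72319062 to 72321654), held the highest enrichment. Its first peak, from 72319102 to 72320341, stood at 22.2-fold (17 to 28.4) on 60 fragments over a background of 1.75. The second peak, 276 bp further on, stood at 6.69-fold (4.72 to 9.24) on 35 fragments over 4.38. The intervals of the pair did not overlap.

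Klf4, a factor of epithelial differentiation and pluripotency (NCBI gene 16600; chromosome 4, 55527137 to 55532475), had its strongest peak in the middle of the gene. That peak, from 55529740 to 55531173, was the widest of the family at 1434 bp and stood at 15.4-fold (11 to 20.9) on 39 fragments. The peak nearest the start stood at 4.08-fold (2.26 to 6.89) on 12 fragments and the one nearest the end at 5.95-fold (4.1 to 8.37) on 31. Both lay below the middle peak with no overlap of intervals.

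Klf5, a factor of proliferating epithelium (NCBI gene 12224; chromosome 14, 99298691 to 99313412), had all 3 peaks above the median of peaks in protein-coding genes. In order of coordinate they stood at 14.3-fold (9.42 to 20.8), 10.8-fold (8.16 to 14) and 6.56-fold (4.73 to 8.87). The first (99298736 to 99299213) held 25 fragments over a background of 0.823, and the second held 55 over 4.2. A stretch of 10863 bp without a peak separated the second from the last.

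Klf7, a factor known from neurons and fat cells (NCBI gene 93691; chromosome 1, 64029448 to 64122345), had the lowest maximum among the members with a peak. From 5′ to 3′ its peaks stood at 4.82-fold (3.23 to 6.93), 6.53-fold (4.65 to 8.94) and 3.46-fold (2.27 to 5.09), the last being the lowest value in the family. They lay 41594 and 48590 bp apart, and the interval of the middle one overlapped both others. Klf6 (NCBI gene 23849; chromosome 13, 5861489 to 5870393), an early-response member of the same branch, was touched by 0 peaks. The nearest peak of the list lay 2420 kb from it. As the list gives no background for a gene without a peak, a Klf6 signal below the limit of detection is not distinguished from none.

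Klf3, the CtBP-binding repressor (NCBI gene 16599; chromosome 5, 64803521 to 64832901), had its highest value at the start of the gene. That peak, from 64803533 to 64803790, stood at 9.4-fold (5.92 to 14.3) on 20 fragments. Its summit also lay in the protein-coding gene Gm38457, and as the list gives no strand its fragments could not be assigned to 1 of the 2 genes. The other 3 peaks, further along the span, stood at 4.37, 5.87 and 4.13-fold on 55, 28 and 31 fragments. Without the shared peak the highest value of Klf3 was 5.87.

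Klf13, a SIN3A-binding repressor (NCBI gene 50794; chromosome 7, 63886351 to 63938915), held the highest fold enrichment of the family and the most uneven set of peaks. The peak at its start, from 63937837 to 63938931, stood at 25.1-fold (18.6 to 33.1) on 48 fragments over a background of 0.954. It exceeded the highest peak of 99.6% of protein-coding genes with a peak. A second strong peak near the other end, from 63891098 to 63891853, stood at 15.1-fold (11.8 to 19.1) on 67 fragments, the most in the family.

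Each strong peak of Klf13 had a weaker one beside it, 277 bp away at the start and 145 bp away near the end. These stood at 4.62-fold (2.43 to 8.14) and 3.5-fold (2.35 to 5.03), and their intervals lay below that of the highest peak. The 45466 bp between the pairs held no peak. The highest value was 7.17 times the lowest.

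Klf9, the progesterone receptor partner (NCBI gene 16601; chromosome 19, 23141226 to 23168129), had a pair of peaks in its first kilobase and 1 near its end. The pair stood at 8.1-fold (5.21 to 12.1) and 7.4-fold (5.1 to 10.4) on 22 and 31 fragments, with overlapping intervals. The last peak stood at 3.5-fold (2.62 to 4.59) on 50 fragments over a background of 13.6, the highest background of the family. Its interval lay below that of the first peak.

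Klf10, a gene induced by transforming growth factor beta (NCBI gene 21847; chromosome 15, 38291464 to 38300711), had a single peak. It ran from 38297003 to 38297539 and stood at 8.77-fold (6.55 to 11.5) on 50 fragments. Klf15, a metabolic regulator that responds to steroid hormones (NCBI gene 66277; chromosome 6, 90461043 to 90491803), had 3 narrow peaks of 227 to 278 bp. They stood at 5.22-fold (2.49 to 10.1), 5.28-fold (3.05 to 8.63) and 7.35-fold (4.39 to 11.7) on 7, 14 and 16 fragments. These are among the shallowest summits of the family, and their intervals overlapped each other.

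**Figure D2:**
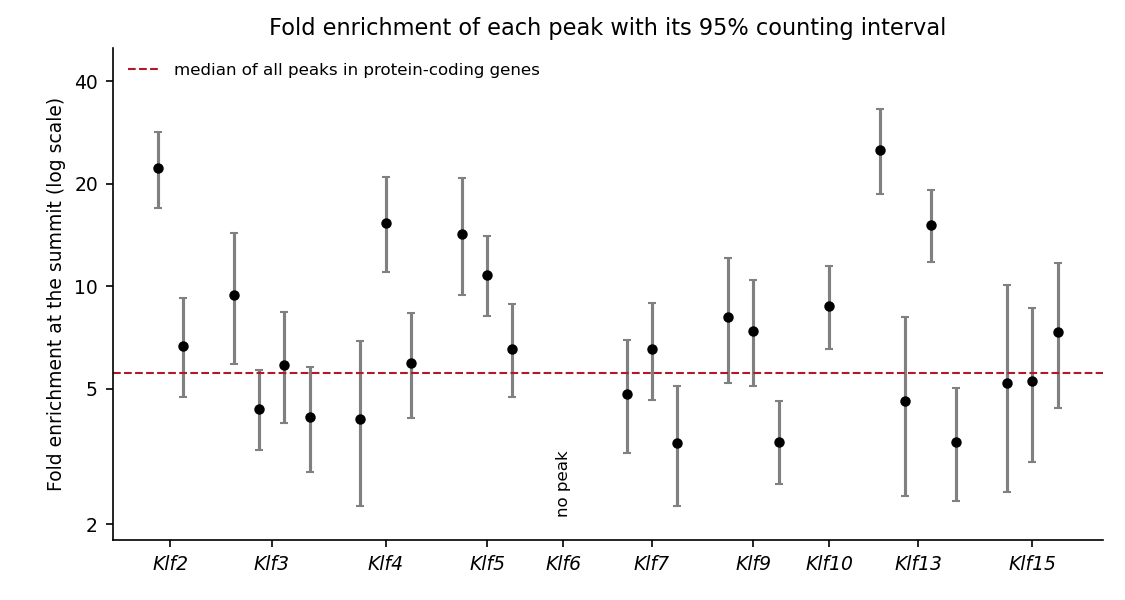
Fold enrichment at the summit (log scale) of each of the 26 peaks, grouped by gene, from 5′ to 3′ except in Klf5 and Klf10, where they run by coordinate. Bars are 95% Poisson intervals of the fragment number and the dashed line is the median of all peaks in protein-coding genes, 5.56; the first peaks of Klf13 and Klf2 stand highest, at 25.1 and 22.2.

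By the highest peak, the order of the members was Klf13, Klf2, Klf4, Klf5, Klf3, Klf10, Klf9, Klf15 and Klf7. The intervals of all neighbours in this order overlapped. Of the 36 pairs of members, 12 did not overlap. The compared peaks were picked as the highest of each gene, and no share over pairs of other genes is given here. The number of pairs is therefore a description only. Klf13 and Klf2 each lay above Klf3, Klf10, Klf9, Klf15 and Klf7, while Klf4 and Klf5 each lay above Klf7. The order depended on the peaks used. Among peaks of at most 533.8 bp, Klf13 (4.62) and Klf2 (6.69) stood below Klf3 (9.4), Klf9 (8.1) and Klf15 (7.35). By the median over a gene's peaks Klf13 (9.86) stood below Klf5 (10.8). The median of the highest peak over the 9 genes was 9.4, against 6.61 over the 6709 protein-coding genes with a peak, and 8 of the 9 lay above that value. The exception was Klf7. The median of 9.4 is the value of Klf3 at the peak shared with Gm38457. Counting only summits in 1 gene, the median was 8.77. Klf3, at 5.87, then also lay below 6.61, and below Klf7 (6.53). The median over all genes under that rule is not given here. Highest peaks are maxima over unequal numbers of peaks, with a median of 3 peaks in the members that held one and 2 in all genes with a peak. Over single peaks the medians were 6.55 and 5.56. Within genes, 9 of the 17 other peaks had an interval below that of the gene's highest peak. The highest peak was picked from these same values, and no share over all genes is given here, so this count is a description only.

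Summits were counted by their place along the gene. Members with a listed strand held 22 peaks. Of these, 10 (45.5%) had their summit in the first of 3 equal parts of the span. The middle part held 5 (22.7%) and the last part 7 (31.8%). As several of these peaks belong to the same gene, the shares are descriptions only. Over 16163 summits in all protein-coding genes with a listed strand, the shares were 22.9, 23.8 and 53.3%. Klf15 had no summit in the last part of its span. The only Klf3 summit in the first part is the one shared with Gm38457. Counting only summits in 1 gene, the first part held 42.9% of the member peaks.

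First and last peaks were compared in the 7 members with a listed strand and at least 2 peaks. The background that the peak caller used was lower at the first peak in all 7. As its source is not stated, it is given here as the caller's value and not as a level of input RNA. It was 0.954 and 7 fragments in Klf13, 1.84 and 13.6 in Klf9, and 1.23 and 6.74 in Klf3. In Klf2 it was 1.75 and 4.38, in Klf4 2.19 and 4.38, in Klf15 0.534 and 1.31, and in Klf7 4.81 and 6.22. The median ratio of last to first was 2.5. Of 3093 protein-coding genes with a listed strand and 2 or more peaks, 73.7% also had the higher background at the last peak, with a median ratio of 1.83. The first Klf3 peak is the one shared with Gm38457. Counting only summits in 1 gene, the background was higher at the last peak in 6 of the 7 members. Klf3 then went the other way, with 11.8 at its first peak and 6.74 at its last.

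Fold enrichment was higher at the first peak than at the last in 5 of the 7 members, against 60% of all such genes. The exceptions were Klf4 and Klf15. Among peaks of at most 533.8 bp the number was 3 of 5 members, against 60.3% of 2631 genes. The fragment numbers did not follow the same pattern. They were higher at the first peak in Klf13 (48 and 27), Klf2 (60 and 35) and Klf7 (27 and 24), and higher at the last in Klf3, Klf4, Klf9 and Klf15. The last peak of Klf9 and the first of Klf13 held nearly the same number of fragments, 50 and 48, at 3.5-fold and 25.1-fold. The part of the background in the order of fold enrichment along a gene was not tested.

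**Figure D3:**
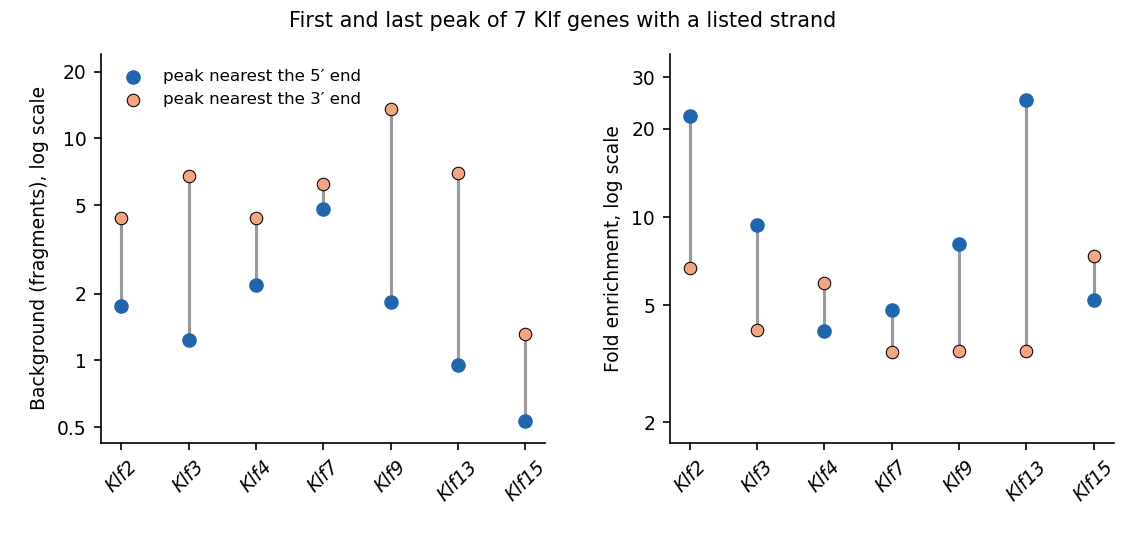
Background in fragments (left, log scale) and fold enrichment (right, log scale) at the peak nearest the 5′ end (blue) and nearest the 3′ end (orange) of the 7 members with a listed strand and at least 2 peaks. The orange point is the higher in every gene on the left, and the blue point is the higher in 5 genes on the right. The first Klf3 peak is the one shared with Gm38457.

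Widths ran from 227 bp in Klf15 to 1434 bp in Klf4, with a median of 369 bp, against 315 bp for all peaks in protein-coding genes. A peak of at least 1000 bp was found in Klf2 (1240 bp), Klf4 and Klf13 (1095 bp), that is in 3 of 10 members against 4.11% of all protein-coding genes. The second peak of Klf5 fell just short at 980 bp. The 10 peaks of at least 500 bp had a median of 9.77-fold and the 16 narrower ones a median of 5.25-fold. The same medians over all protein-coding genes were 6.76 and 5.33. Across the 26 peaks Spearman's rho between width and fold enrichment was 0.52, and across the 19883 peaks it was 0.23. Width and fold come from the same signal and the peaks of a gene share a transcript, so these values are descriptions only. In 4 of the 8 members with several peaks the widest peak was also the highest, and Klf13 also had a wide peak, of 670 bp, at 3.5-fold.

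**Figure D4:**
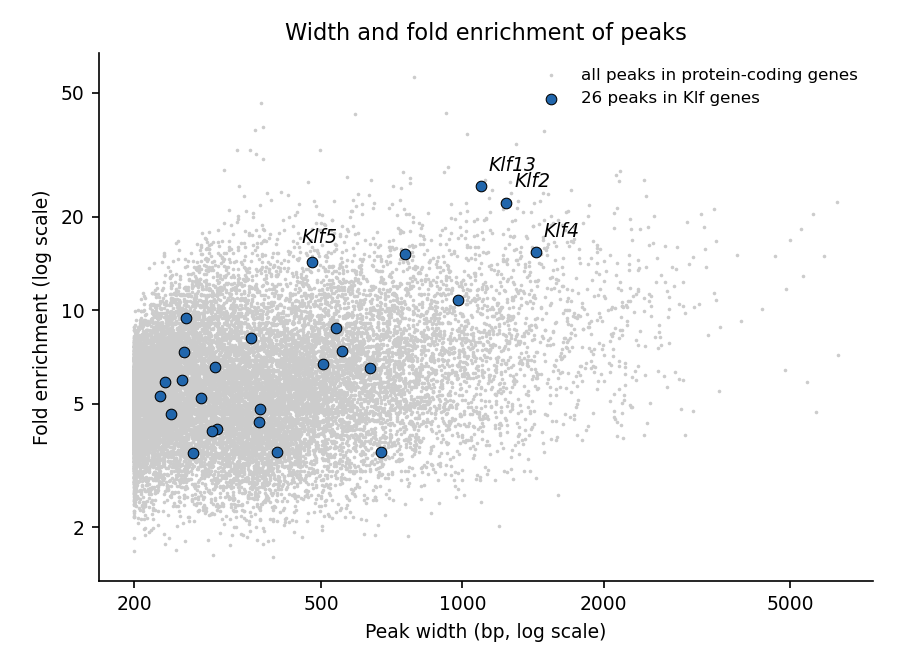
Width in bp and fold enrichment, both on log scales, of the 26 peaks in Klf genes (blue) over all 19883 peaks in protein-coding genes (grey), with the highest peak of 4 genes named. The highest peaks of Klf13, Klf2 and Klf4 are at least 1000 bp wide, while that of Klf5 is 478 bp wide.

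The 7 other genes of the family held 7 peaks. The 10 members were chosen with earlier results of these data known, so a contrast between the 2 sets is a description only. Of the 7 genes, 3 held a peak, against 30.6% of all protein-coding genes. Klf8, a CtBP-binding repressor, held 1 peak at 4.8-fold (2.37 to 8.94), and the SIN3A-binding Klf11 held 2, up to 5.99-fold (4.02 to 8.61). Klf16, also of that branch, held 4 peaks and reached 20.3-fold (14.4 to 27.7), an interval that overlapped those of Klf13 and Klf2. Klf1, Klf12, Klf14 and Klf17 held none. Over all 17 genes there were 33 peaks. By branch a peak was held by 4 of 6 activators, 2 of 3 CtBP-binding and 5 of 6 SIN3A-binding genes, against 30.6% of all protein-coding genes. In those with a peak the median highest value was 14.8, 7.1 and 8.77-fold, against 6.61 in all genes with a peak. The CtBP-binding median uses the Klf3 peak shared with Gm38457, without which the highest value of Klf3 was 5.87.

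The Sp factors, zinc-finger proteins that bind similar GC-rich DNA, held a peak in 5 of 9 genes, against 30.6% of all protein-coding genes, with a median highest peak of 5.32-fold. Only Sp2, with 5 peaks up to 11-fold (7.92 to 15), passed 10-fold among them. Sp6, Sp7, Sp8 and Sp9 held none. Of 9 genes for cofactors that Krüppel-like factors recruit, 7 held a peak, against the same 30.6%, with a median highest peak of 9.11-fold. Over all protein-coding genes with a peak the median highest peak was 6.61-fold. Some cofactor genes are long, with spans of 137 kb in Ctbp2, 133 kb in Crebbp and 106 kb in Kat2b. The median span of genes with a peak was 26.5 kb. Sin3a reached 14.9-fold (10.7 to 20.1), Ctbp2 12.1-fold (7.97 to 17.6) and Crebbp, an acetyltransferase, 10.4-fold (8.12 to 13) with 8 peaks. Hdac2 and Kat2b held none.

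The kinase route that induces Klf2 and Klf4 in endothelium held a peak in all 6 listed genes, against 30.6% of all protein-coding genes. Several of the 6 are long genes, with spans of 218 kb in Map2k5, 163 kb in Mef2c and 145 kb in Mef2a. Its kinase Mapk7 reached 14.4-fold (10.6 to 19.3) with 4 peaks in a span of 5.46 kb, its activator Map2k5 12.2-fold (8.75 to 16.7), and the transcription factor Mef2d 11.2-fold (8.02 to 15.2) with 9 peaks. Map3k3 and Mef2a stood at 2.12 and 3.15-fold. Of 3 ubiquitin ligases that act on Krüppel-like factors, Fbxw7 held 1 peak at 13.7-fold (9.17 to 19.6) and Wwp1 1 at 3.5-fold (2.64 to 4.55), while Smurf2 held none.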

How the data were processed

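The only values were those of 1 deposited peak list. HISAT2 2.2.1, MACS3 3.0.0a7 and the build mm10 are named per the submitters' processing notes, with no settings. The fold ratio, the −log10 p-value, the −log10 q-value and the whole-number score of each peak were deposited by the authors. The largest q was 0.0499. Library totals were not used here.

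With MACS-style pseudocounts of 1, a whole number of fragments was sought that matched both the fold and the p-value within a relative 1e-05. It was found, with no second match, for 21192 of 21192 peaks. The step was tested on simulated data with a narrower range of fold and background than the list. That test did not reach fold values as high as the highest peaks of Klf2 and Klf13. Gene spans and start windows are from RefSeq GRCm38.p6, with strand from the start windows. Exons were not used here.

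With 1 library per group no test was made. The text names the 10 members and genes of fixed lists. Members and lists were chosen with earlier results of these data known. The thresholds of 3 peaks, 10-fold and 1000 bp, the comparisons by place and of first with last peak, and the motif were chosen after seeing the data. Alternatives changed the q, fold and width limits and the rule that gives a peak to a gene. Python 3.11.15 with scipy 1.17.1 was used.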

Additional observations from a re-analysis of the deposited data

How the results depend on the processing

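With 1 library per group no value has a replicate, and the 95% intervals cover counting error only. When peaks needed a −log10 q of at least 10, the 26 peaks became 17 and the members with at least 3 peaks became 3 in place of 7, against 4.94% of all protein-coding genes. Klf15, whose highest −log10 q was 9.99, then held no peak. When the fold had to reach the median of all peaks (5.58), there were 16 peaks and 1 member with at least 3, against 5.25% of all genes. With peaks no wider than the 80th percentile (533.8 bp), 17 peaks were left and Klf10 held none. In that case 2 members had at least 3 peaks (9.51% of all genes) and 1 had a 10-fold peak (3.34%), while the 0 with one of 1000 bp follows from the limit for every gene. The median highest peak was then 7.02 in place of 9.4, against 6.14 in all genes. The first 50 bases were covered in 3 members in place of 5 (2.2% of all genes), and the first peak was higher than the last in 3 in place of 5 (60.3%). These filters remove peaks by construction. Members with a peak, the median fold and width of the peaks, the share in the first part of the span and the members with a higher background at the last peak stayed within 1.5 times or within their interval under all 5 alternatives. With the width limit the highest peaks of Klf2, Klf4 and Klf13 fell outside their intervals, to 6.69, 5.95 and 4.62. Counting only summits in 1 gene of any kind moved the highest peak of Klf3 alone, to 5.87. This made the median highest peak 8.77 in place of 9.4. Under that rule the first 50 bases were covered in 4 members in place of 5. The background was then higher at the last peak in 6 members in place of 7. Taking each gene by its median peak moved Klf2, Klf3, Klf4 and Klf13, to 14.4, 5.12, 5.95 and 9.86, and did not move the other 5.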
